A study of Mus musculus with 8 samples.

Results

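RNA of mouse embryonic stem cells treated with dd-linc1393 (dd) was compared with RNA of the same cell type treated with sd-linc1393 (sd). Each side had 2 RNA-seq libraries, numbered 1 and 2 by the labels, and these were 4 of the 8 libraries of the series. The genes described are those with a mean of at least 1 FPKM over the 4 libraries, 13620 of the 52338 genes with values. FPKM is the number of fragments per kilobase of transcript, scaled to the size of the library. The mean was 1 FPKM for Gm15050, just inside this limit, and 0.9998 FPKM for Cabin1, just outside it. The other 4 libraries came from wild-type cells without treatment (control) and from cells given sh-linc1393 (sh). They enter the statistical model and stand beside some values below. The labels explain neither of the prefixes sd and dd, nor give dose, time, line or mode of delivery, and for treated cells the genotype field repeats the treatment. Both treatments carry the name of linc1393, and the labels do not say whether either is an inactive reagent. The level of linc1393 itself was not analysed here. Whether the libraries of a group are separate cultures is not stated, so a p-value reflects the spread among these libraries alone, which may be technical.

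Embryonic stem cells are pluripotent cells from the inner cell mass of the blastocyst that can form all tissues of the embryo. A network of transcription factors around Pou5f1 (Oct4), Sox2 and Nanog keeps them in this state, together with LIF signalling through Stat3, while FGF signalling through ERK primes them to leave it. Long intergenic non-coding RNAs are transcripts without a protein product, and several are known to act on pluripotency through chromatin regulators. The pluripotent state also has a typical metabolism, with active ribosome production and a mitochondrial genome whose transcripts are cut out of long precursors at the transfer RNAs between the genes.

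Depth was read from the spacing of low FPKM values. The scaling totals implied by this spacing were 20346942 and 15365418 reads in the sd libraries and 19161790 and 20387056 reads in the dd libraries. The 4 libraries resembled each other by number more than by treatment. Across the 13620 genes, Spearman's rho was 0.932 between sd replicate 1 and dd replicate 1 and 0.918 between the replicate 2 libraries. It was 0.563 between the sd libraries and 0.694 between the dd libraries (genes are not independent replicates). Actb, cytoplasmic actin, had 9645 and 65.9 FPKM in sd and 9006 and 55.3 FPKM in dd. Gapdh, a glycolytic enzyme, had 10.1 and 61.0 FPKM in sd and 7.10 and 37.4 FPKM in dd. Genes above 0 numbered 19600 and 19745 in the replicate 1 libraries of sd and dd, and 45189 and 32639 in their replicate 2 libraries. Olfactory receptor genes, which stem cells are not known to use, were above 0 for 96.5% of 1135 genes in sd replicate 2 and for 50.4% in dd replicate 2, against 8.19% and 7.84% in replicate 1. The replicate 2 libraries of sd and dd therefore differed in low signal in a way that the replicate 1 libraries did not. Each difference between dd and sd is given within each replicate number for this reason. The summed level of 9 pluripotent stem cell markers was 1822 and 10040 FPKM in sd and 1853 and 9345 FPKM in dd. Dppa5a alone had 463.5 and 8584 FPKM in sd and 556.9 and 7616 FPKM in dd. The gap between replicate numbers in this sum is therefore mostly that of Dppa5a and not of the markers together. The sum of 3 blood markers was at most 0.368 FPKM, and of 7 fibroblast feeder markers only Vim passed the limit on low values.

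Sequences are shown first for a few of the genes that differed in the same direction in both replicate numbers. The mature strand of mmu-miR-8099, 1 of 2 microRNA genes among the 12 with lower values in dd, is from RefSeq (GRCm38.p6, chr12:93927373-93927393, plus strand), with its seed at bases 2 to 8 in capitals. The transfer RNA mt-Tl1, first among the 12 with higher values, lies at chrM:2676-2750 on the plus strand (GRCm38). Promoters are RefSeq windows from 250 bases before to 50 after the start, on the strand of the gene, with GC boxes (GGGCGG on either strand) in capitals. Those of Chsy1 (chr7:66109242-66109541, plus strand) and Sult6b1 (chr17:78906943-78907242, minus strand) belong to the nuclear genes with the highest rank among the higher 12. Those of Cldn6 (chr17:23679115-23679414, plus strand) and Mlx (chr11:101087040-101087339, plus strand) belong to genes with lower values.
mmu-miR-8099: cCAAGGCGugggaaagguugu
mt-Tl1: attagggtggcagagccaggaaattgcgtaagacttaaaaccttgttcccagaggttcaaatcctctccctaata
Chsy1: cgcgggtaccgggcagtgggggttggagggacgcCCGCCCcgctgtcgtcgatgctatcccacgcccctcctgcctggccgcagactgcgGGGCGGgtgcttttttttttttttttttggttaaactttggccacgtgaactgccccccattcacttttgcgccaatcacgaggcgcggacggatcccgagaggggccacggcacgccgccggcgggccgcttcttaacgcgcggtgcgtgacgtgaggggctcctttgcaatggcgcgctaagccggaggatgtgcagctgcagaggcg
Sult6b1: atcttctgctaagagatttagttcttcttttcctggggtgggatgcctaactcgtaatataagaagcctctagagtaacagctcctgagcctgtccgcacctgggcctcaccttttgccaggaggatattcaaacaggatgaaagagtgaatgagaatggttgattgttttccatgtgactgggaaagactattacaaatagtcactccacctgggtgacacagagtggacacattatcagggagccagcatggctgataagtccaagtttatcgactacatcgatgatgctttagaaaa
Cldn6: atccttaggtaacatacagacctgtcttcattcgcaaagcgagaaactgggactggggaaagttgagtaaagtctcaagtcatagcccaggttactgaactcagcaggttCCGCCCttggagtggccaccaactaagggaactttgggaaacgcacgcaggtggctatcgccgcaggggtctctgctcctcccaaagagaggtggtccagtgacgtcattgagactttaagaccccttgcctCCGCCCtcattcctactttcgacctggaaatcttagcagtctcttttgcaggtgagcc
Mlx: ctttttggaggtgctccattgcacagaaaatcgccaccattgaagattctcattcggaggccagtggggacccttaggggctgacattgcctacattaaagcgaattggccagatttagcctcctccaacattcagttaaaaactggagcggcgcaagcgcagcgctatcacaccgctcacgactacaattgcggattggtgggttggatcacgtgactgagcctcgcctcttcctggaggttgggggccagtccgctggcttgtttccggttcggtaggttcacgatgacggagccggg
Chsy1 and Cldn6 each held the GC box and the other promoters shown did not. Of the 12 genes with higher values 11 had a promoter in the table and 8 of these held a GC box. Among the 12 with lower values 7 had a promoter and 5 held one. The share among all 32851 promoters of this length was 35.7%. That set was not limited to genes that passed the limit on low values, and it can hold several promoters of a gene. It is therefore not a like set for the named genes, and an excess over it cannot be read as particular to them. The CCAAT box (CCAAT, either strand) was in 8 of 11 and 3 of 7 promoters, against 37.4% of all, and the E-box (CACGTG) in 3 of 11 and 1 of 7, against 7.15%. The TATA box (TATAAA) was in none of the 18, against 13.6% of all, and none of these shares was tested.

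No gene passed the test of dd against sd. With limma on log2(FPKM + 1) over all 4 groups, 0 of 13620 genes were called higher (0%) and 0 were called lower (0%) at an adjusted p of 0.05 (Benjamini-Hochberg). At an unadjusted p of 0.05, 2 genes were higher and 11 lower, where 681 in all would be expected by chance, and with quantile normalization the split was 7 and 10. This model does not use the replicate number, by which the libraries resembled each other, and its median standard error of the log2 difference was 0.83 over genes. With the number as a block over all 8 libraries the median standard error was 0.425 and 0 genes were called. With the block and the 4 dd and sd libraries alone, a fit with 1 residual degree of freedom, 7 genes were called, and 0 after correction for GC content. The differences below are given as values of these 4 libraries. A total of 514 genes had both dd libraries above both sd libraries (3.77%), and 949 had both below (6.97%). The median difference over all genes was -0.07, with -0.02 within replicate 1 and -0.07 within replicate 2, and 5635 genes had a positive mean difference (41.4%). Quantile normalization moved the median over all genes to 0.04 and median ratio scaling moved it to 0.06, so small differences are to be read against these shifts.

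The differences within replicate 1 and within replicate 2 had little in common across genes. Pearson's r between them was -0.05 and Spearman's rho was -0.04 over the 13620 genes, given as a description, and 47.8% of genes had the same direction in both. In all, 2692 genes were higher in dd in both numbers (19.8%), 3820 were lower in both (28%) and 6786 went opposite ways. A difference of 1 or more on the log2 scale, in the same direction in both numbers, was found for 4 genes higher in dd (0.0294%) and 42 lower (0.308%). Within replicate 1 alone 436 genes were that much higher and 585 that much lower, and within replicate 2 alone 95 and 1178. The 4 higher genes were mt-Tl1, the small nucleolar RNA Gm22422, the pseudogene Gm47169 and the lincRNA Gm47814, the last 3 with at most 14.5 FPKM in any of the 4 libraries. These 3 lie outside the rule for named genes and were picked with their values known. Of the 42 lower genes, 22 were pseudogenes, 7 small RNAs, 6 protein coding and 7 of other classes, and their median level was 3.61 FPKM over the 4 libraries. Quantile normalization gave 15 higher and 30 lower, and median ratio scaling 10 and 30.

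**Figure D1:**
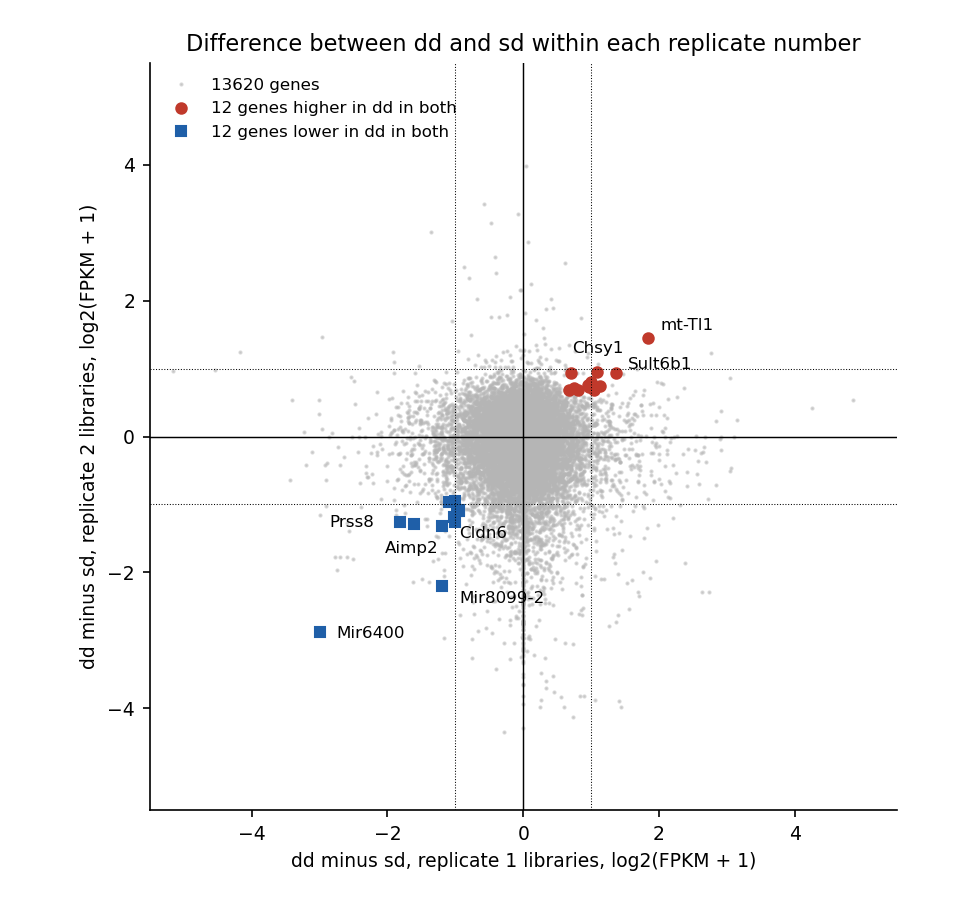
Difference between dd and sd in log2(FPKM + 1) within replicate 1 (horizontal) and within replicate 2 (vertical) for the 13620 genes, with dotted lines at 1 and -1. The points form a cross without a diagonal (Pearson's r -0.05). The 24 named genes (12 higher in red and 12 lower in blue) are those farthest along the shared directions with at least 2 FPKM in both libraries of the higher group. Predicted genes, clones and pseudogenes were left out of this choice, and some of them lie farther out.

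Genes that differed in the same direction in both numbers were ranked by the smaller of their 2 within-replicate differences, among genes with at least 2 FPKM in both libraries of the higher group and a symbol other than a predicted gene, clone or pseudogene. These values chose the genes, and they are given as a description. On the higher side, mt-Tl1, a mitochondrial transfer RNA for leucine, had 3.93 and 14.8 FPKM in sd and 16.7 and 41.9 FPKM in dd. Both dd values exceeded both sd values, but they rest on 6 and 17 reads against 24 and 64. The differences were 1.84 and 1.44, and their mean of 1.64 had a standard error of 1.71 (limma adjusted p = 1). This standard error and those of single genes below are from the model without the replicate number. They therefore include the gap between replicate numbers and do not measure the spread of the within-replicate differences. With the block over all 8 libraries the standard error of mt-Tl1 was 0.65, and no gene was called in that fit. Control had 6.24 and 113 FPKM, a wider range than that between sd and dd.

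Chsy1 (ENSMUSG00000032640, chromosome 7, 66109515 to 66173798, GRCm38), which encodes a chondroitin synthase, had 2.32 and 2.29 FPKM in sd and 6.05 and 5.37 FPKM in dd. The libraries of each group lay close together and the groups did not overlap. The dd value was 2.61 times the sd value in replicate 1 and 2.34 times in replicate 2, with a mean log2 difference of 1.02 (SE 0.50, limma adjusted p = 1). Control had 3.17 and 3.08 FPKM and sh had 5.21 and 2.78 FPKM, so 1 sh library was near the dd level. Sult6b1, a cytosolic sulfotransferase gene (chromosome 17, 78883938 to 78906992), had 3.05 and 6.59 FPKM in sd and 9.43 and 13.4 FPKM in dd, without overlap. Its mean difference was 1.15 (SE 0.62, adjusted p = 1), and sh replicate 2 reached 12.6 FPKM. Eif5a2, an isoform of the translation factor eIF5A, had 3.46 and 2.86 FPKM in sd and 7.95 and 5.72 FPKM in dd. Its groups did not overlap, and its control and sh values of 1.46 to 3.79 FPKM were all below both dd libraries.

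Other higher genes were a retinol dehydrogenase, a thioredoxin-like protein and proteins of chromatin and membranes. Rdh14, the retinol dehydrogenase, had 5.88 and 6.73 FPKM in sd and 12.5 and 11.8 FPKM in dd. Txndc17, the thioredoxin-domain gene and the most abundant of the 12, had 65.5 and 103 FPKM in sd and 106 and 168 FPKM in dd. Mospd2, a tether at contact sites of the endoplasmic reticulum, had 1.55 and 1.21 FPKM in sd and 4.27 and 2.54 FPKM in dd. These 3 genes did not overlap between the groups. Ccdc122, a coiled-coil gene, had 2.03 and 1.18 FPKM in sd and 4.08 and 2.60 FPKM in dd, also without overlap, while control replicate 1 had 11.5 FPKM. The libraries of 4 genes overlapped, because the replicate numbers differed more than the treatments. Asf1a, a chaperone of histones H3 and H4, had 15.3 and 6.15 FPKM in sd and 25.5 and 12.6 FPKM in dd. Chuk, the IKK-alpha kinase, had 17.4 and 8.07 FPKM in sd and 34.7 and 14.4 FPKM in dd. Zfp820, a zinc finger gene, had 1.36 and 4.83 FPKM in sd and 4.18 and 8.76 FPKM in dd. Etfbkmt, a methyltransferase of a mitochondrial electron carrier, was the fourth, with 3.66 and 1.70 FPKM in sd and 7.17 and 3.32 FPKM in dd. The mean differences of these 8 genes lay between 0.69 for Txndc17 and 0.94 for Zfp820, each with an adjusted p of 1 by limma.

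On the lower side, Mir6400 (ENSMUSG00000098929, chromosome 4, 15942900 to 15942991), a microRNA gene, had 6.94 and 6.37 FPKM in sd and was at 0 in both dd libraries. It was also at 0 in the 2 control and the 2 sh libraries. At its length 3 reads are 5.08 and 8.91 FPKM in control and 2.37 and 2.33 FPKM in sh, so a level like that of sd would not be detectable in control replicate 2. The sd values rest on 13 and 9 reads (exact 95% Poisson intervals 6.92 to 22.2 and 4.12 to 17.1). The lower limit of each sd interval was 2.17-fold the dd floor of 3 reads in replicate 1 and 1.82-fold in replicate 2. These folds cover counting error only. The gene passed the limit on low values through sd alone and was ranked on these same values. The folds are therefore a description and not a bound on the difference. Its adjusted p was 1 by limma, 0.00217 in the fit of 4 libraries with the replicate block, and 0.996 in that fit after GC correction. Mir8099-2, another microRNA gene (chromosome 12, 93927338 to 93927464), had 5.03 and 7.17 FPKM in sd and 1.64 and 0.772 FPKM in dd, from 2 to 14 reads. All of the 31-base stretches sampled from it (100%) are also found in other genes, so reads cannot be assigned to this copy. Control had 0 and 10.8 FPKM, a range that spans both groups.

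Cldn6, a claudin of tight junctions known from pluripotent and early embryonic epithelial cells (chromosome 17, 23679249 to 23682446), had 8.62 and 9.91 FPKM in sd and 3.21 and 3.39 FPKM in dd. The groups were well separated, sd was 2.68 and 2.92 times dd, and the mean log2 difference was -1.25 (SE 0.70, limma adjusted p = 1). Control had 7.79 and 6.99 FPKM and sh had 1.69 and 8.94 FPKM, so the dd level was below control and sh replicate 1 was below dd. Prss8, the membrane-anchored serine protease prostasin of epithelia, had 4.30 and 2.74 FPKM in sd and 0.507 and 0.556 FPKM in dd. Both dd values were below every control and sh value of the gene, which ranged from 2.13 to 5.17 FPKM. Its mean difference was -1.54 (SE 0.49), with an unadjusted p of 0.0184 and an adjusted p of 1 by limma. Mlx, a partner of the Max-like network of transcription factors (chromosome 11, 101087277 to 101092207), had 8.43 and 8.30 FPKM in sd and 3.71 and 2.90 FPKM in dd. In control and sh its values were 0.858 and 1.75 FPKM in replicate 1 and 8.20 and 7.52 FPKM in replicate 2, so in replicate 1 it was the sd library that stood above the others.

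Aimp2, a scaffold of the multi-tRNA synthetase complex, had 2.53 and 10.9 FPKM in sd and 0.158 and 3.88 FPKM in dd, and its groups overlapped across replicate numbers. Nrbp1, a pseudokinase, had 3.30 and 4.81 FPKM in sd and 1.11 and 1.54 FPKM in dd, without overlap. Icmt, which methylates prenylated proteins, had 3.37 and 2.81 FPKM in sd and 1.06 and 0.946 FPKM in dd, without overlap. Of the remaining genes, Azin2 and Hist1h3g did not overlap between groups, and Acin1 and Hspb8 did. Azin2, an antizyme inhibitor of polyamine metabolism, had 3.19 and 3.35 FPKM in sd and 1.17 and 1.02 FPKM in dd. Hspb8, a small heat shock protein gene, had 18.1 and 63.7 FPKM in sd and 8.46 and 32.3 FPKM in dd. Acin1, an RNA-binding protein gene, had 6.62 and 2.46 FPKM in sd and 2.88 and 0.624 FPKM in dd. Hist1h3g, a histone H3 gene, had 4.73 and 4.42 FPKM in sd and 1.97 and 1.57 FPKM in dd, and shares 60.2% of its stretches with other genes. Use of strand is not stated, so reads of genes that overlap on opposite strands cannot be told apart. This applies to 10 of the 24 genes, namely Chsy1 with Gm26827, Sult6b1 with Gm26637, Ccdc122 with Lacc1, Asf1a with Mcm9, Aimp2 with Eif2ak1, Prss8 with Kat8, Nrbp1 with Gm9970, Mlx with Psmc3ip, Icmt with Rnf207, and Acin1 with 3 genes. It also applies to 14 of 58 other genes chosen from the lists or as reference genes, among them Pou5f1, Stat3 and Gapdh.

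**Figure D2:**
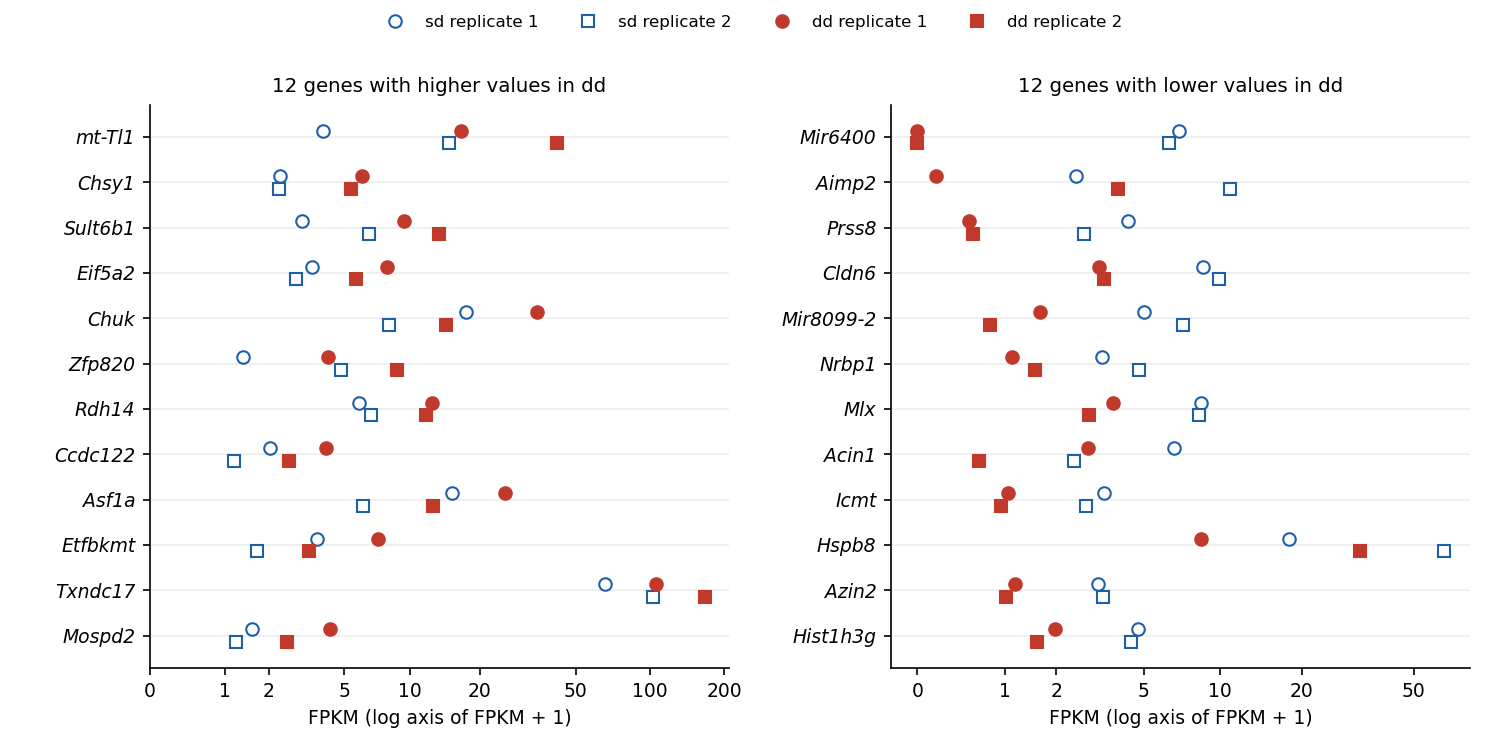
FPKM in each library (log axis of FPKM + 1) of the 12 genes with higher and the 12 with lower values in dd, open blue symbols for sd and filled red for dd, circles for replicate 1 and squares for replicate 2. Chsy1 and Cldn6 have tight, separate groups (2.29 to 2.32 against 5.37 to 6.05 FPKM, and 8.62 to 9.91 against 3.21 to 3.39 FPKM), whereas Aimp2 and Hspb8 differ more between replicate numbers than between treatments.

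The pluripotency factors did not share a direction. Pou5f1 (chromosome 17), which encodes Oct4, had 17.8 and 130 FPKM in sd and 21 and 53.1 FPKM in dd. The dd value was the higher in replicate 1 (0.23) and the lower in replicate 2 (-1.27), and the libraries overlapped. Sox2, its DNA-binding partner, had 207 and 231 FPKM in sd and 235 and 371 FPKM in dd. Both dd values were the higher, with differences of 0.18 and 0.68 and a mean of 0.43 (SE 1.08, limma adjusted p = 1). Nanog had 335 and 269 FPKM in sd and 286 and 275 FPKM in dd, overlapping, with a mean difference of -0.10 that was 0.06 with median ratio scaling. Of 25 measured general pluripotency genes, 13 had a positive mean difference, 4 were higher in both numbers and 3 lower in both, with a median of 0.01. Zscan10, a zinc finger factor of pluripotent cells, had 4.54 and 7.61 FPKM in sd and 2.61 and 1.68 FPKM in dd, without overlap. Gdf3, a TGF-beta family ligand, had 27.0 and 31.8 FPKM in sd and 22.3 and 23.5 FPKM in dd, also without overlap. Neither passed the test (adjusted p = 1).

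Of 23 naive pluripotency genes, 4 were higher and 7 lower in both numbers, and their median of -0.10 was 0.02 with median ratio scaling. Gbx2, a LIF target, had 34.8 and 1.28 FPKM in sd and 19.6 and 0.586 FPKM in dd. Stat3 itself had 9.0 and 3.27 FPKM in sd and 7.42 and 2.36 FPKM in dd, and both genes overlapped because of the gap between numbers. Tdh, the threonine dehydrogenase that mouse stem cells rely on, had 86.5 and 64.9 FPKM in sd and 71.0 and 55.1 FPKM in dd.

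Genes of the next developmental steps had mostly negative differences. Of 18 formative and primed genes 13 were measured, 1 of these had a positive mean difference, 0 were higher in both numbers and 6 lower in both. Their median was -0.31, with -0.03 within replicate 1 and -0.43 within replicate 2. After correction for GC content it was -0.09, so replicate 2 and GC content moved with this group and their part was not tested. Dnmt3b, a de novo DNA methyltransferase, had 23.4 and 3.40 FPKM in sd and 14.2 and 2.20 FPKM in dd. Sall2, a zinc finger factor, had 2.64 and 1.14 FPKM in sd and 0.653 and 0.641 FPKM in dd, without overlap, as did Zic2 with 1.59 and 1.13 against 1.07 and 0.579 FPKM.

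Primitive endoderm genes, which mark the extraembryonic lineage nearest to these cells, showed 9 of 14 measured members lower in both numbers (64.3%, against 28% of all genes) and 0 higher in both. Their medians were -0.33 and -0.27 in replicates 1 and 2, and -0.25 for the mean. After GC correction these were -0.28, 0.02 and -0.10, so the replicate 2 median was no longer negative. The levels were low, with the summed FPKM of 5 markers at 19.6 and 3.23 in sd and 18.7 and 1.45 in dd. Lrp2, the endocytic receptor megalin, had 2.81 and 0.436 FPKM in sd and 1.56 and 0.129 FPKM in dd. Hnf4a, a nuclear receptor, had 2.83 and 1.20 FPKM in sd and 1.32 and 0.742 FPKM in dd. Both overlapped between the groups. Of the 2-cell-like genes 10 of 19 were measured, 1 was higher in both numbers and 6 lower, with a median of -0.16. Zscan4c had 16.8 and 8.86 FPKM in sd and 11.4 and 7.74 FPKM in dd, and shares 91.3% of its stretches with other genes. Few genes of mesoderm (3 of 14), trophoblast (4 of 13) or neuroectoderm (5 of 13) passed the limit, and 0 of 9 blood genes did. Vim, an intermediate filament gene also made by stem cells, had 37.1 and 35.1 FPKM in sd and 43.4 and 42.9 FPKM in dd.

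**Figure D3:**
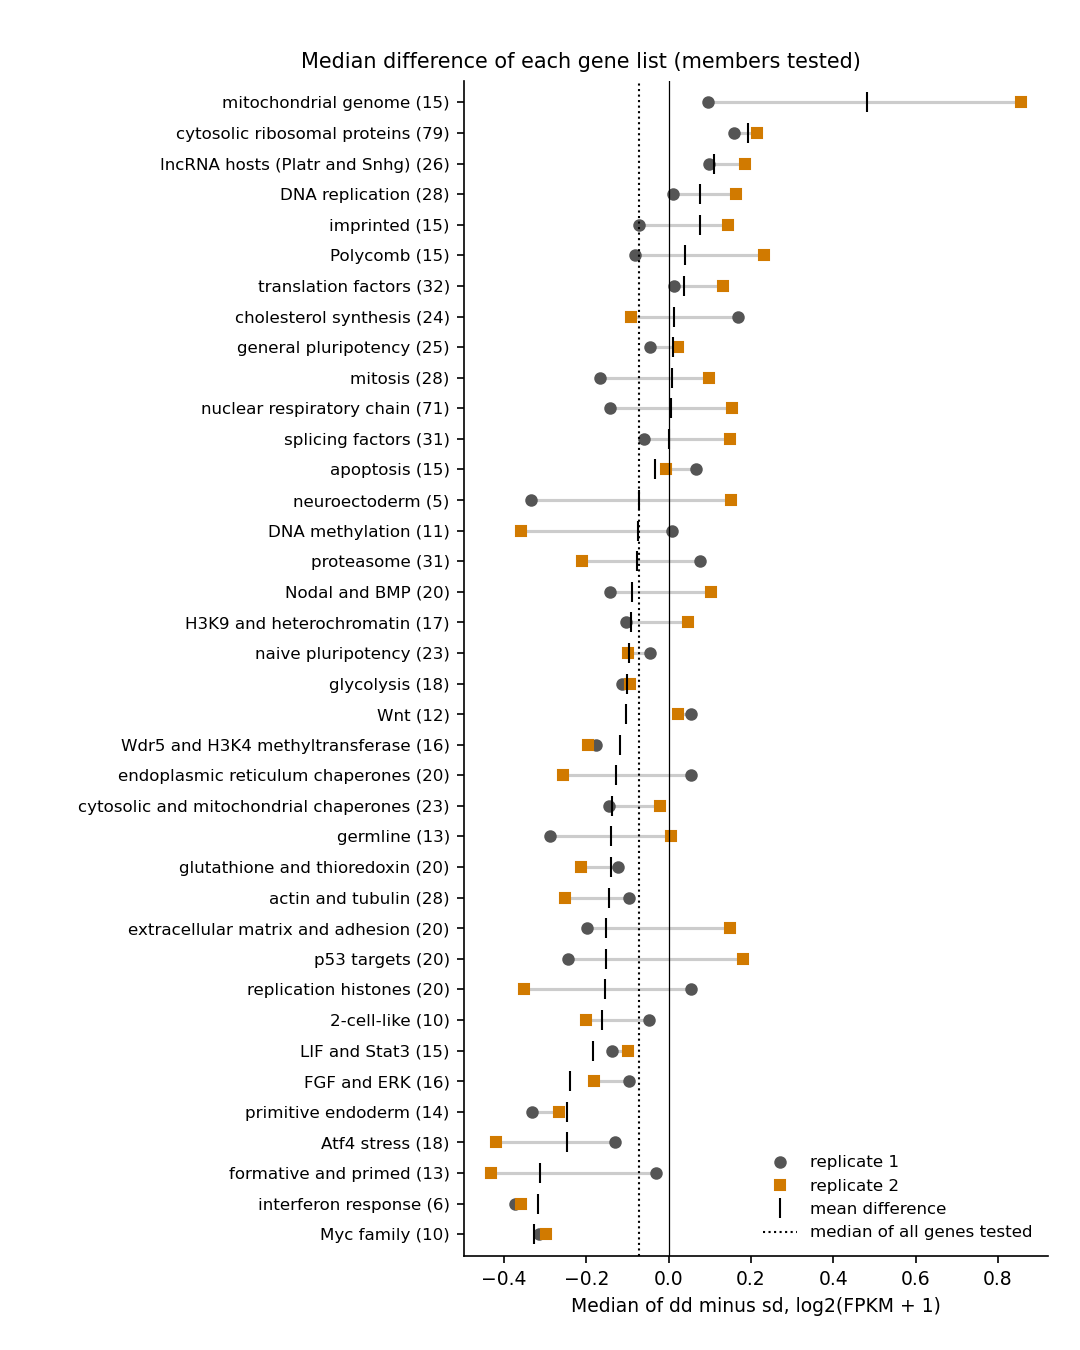
Median difference between dd and sd in log2(FPKM + 1) for each gene list with at least 5 members tested, within replicate 1 (grey circle), within replicate 2 (orange square) and for the mean of both (tick), ordered by the latter. The dotted line is the median of all genes (-0.07). The mitochondrial genome (0.48) is at the top and the Myc family (-0.33) at the bottom, and many lists lie on opposite sides of 0 in the 2 replicate numbers.

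Mitochondrial and ribosomal transcripts had mostly positive differences. All 15 measured genes of the mitochondrial genome (13 messenger and 2 ribosomal RNAs) had a positive mean difference and 11 were higher in both numbers, where the share over all genes was 19.8%. Their median was 0.48, but only 0.10 within replicate 1 against 0.86 within replicate 2. The median GC content of these genes was 36.0%, against 48.9% for all genes. After GC correction the medians were 0.37 for the mean, 0.15 within replicate 1 and 0.53 within replicate 2. The median of the mean difference was 0.37 with quantile normalization and 0.65 with median ratio scaling. Reads from the mitochondrial genome were 9.22% and 3.39% of reads in sd and 10.8% and 5.66% in dd. mt-Co2, a subunit of cytochrome c oxidase, had 15921 and 5537 FPKM in sd and 25102 and 9064 FPKM in dd. mt-Co1, its catalytic subunit, had 10777 and 2825 FPKM in sd and 14797 and 5382 FPKM in dd. mt-Atp8, a subunit of ATP synthase, had 407 and 750 FPKM in sd and 684 and 1080 FPKM in dd, and overlaps mt-Atp6. All 3 were higher in dd within each number and overlapped between groups. mt-Co2 shares 100% and mt-Co1 64% of the stretches with other annotated genes. mt-Nd6, a complex I subunit on the other strand of the mitochondrial genome, went opposite ways, with 1477 and 317 FPKM in sd and 922 and 1295 FPKM in dd. mt-Nd5 did likewise, with 325 and 488 FPKM in sd and 276 and 1686 FPKM in dd. These 2 genes were picked with their values known.

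The mitochondrial transfer RNAs, a class also picked with its values known, differed almost entirely within replicate 2. Of 22 such genes 21 passed the limit, and all 21 had a positive difference within replicate 2, with a median of 2.24, against 11 within replicate 1, with a median of 0.03. Their reads numbered 13406 in sd and 13137 in dd for replicate 1. In replicate 2 they numbered 835 in sd and 4371 in dd, while sh replicate 2 had 2945 and control replicate 2, at a lower depth, had 2749. The sd library of replicate 2 thus held the fewest of all 8 libraries. mt-Tp, the transfer RNA for proline and the most abundant, had 6404 and 358 FPKM in sd and 6530 and 1264 FPKM in dd. mt-Th, that for histidine, had 0.734 and 0.971 FPKM in sd and 0.779 and 30.0 FPKM in dd. mt-Tl1 was the 1 gene of the class past 1 in both numbers.

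Cytosolic ribosomal protein genes, which encode the shell of both ribosomal subunits, had positive medians of like size in both numbers. Of 79 measured genes, 62 had a positive mean difference, 50 were higher in both numbers (63.3%, against 19.8% of all genes) and 3 were lower in both. The median was 0.16 within replicate 1 and 0.22 within replicate 2, and 0.19 for the mean, which was 0.19 with quantile normalization, 0.36 with median ratio scaling and 0.30 after GC correction. No member reached 1 in both numbers or separated the groups, and 0 passed the test. Rpl22 had 104 and 412 FPKM in sd and 143 and 628 FPKM in dd. Rpl26 had 166 and 921 FPKM in sd and 231 and 1457 FPKM in dd. These genes have many processed pseudogenes, and a median of 40.5% of their stretches occur in another gene. Nuclear genes of the respiratory chain did not follow the mitochondrial ones, with 17 of 71 higher and 16 lower in both numbers and medians of -0.14 and 0.16. Ndufb5, of complex I, had 17.6 and 25.5 FPKM in sd and 25.2 and 38.7 FPKM in dd. Atp5d, of ATP synthase, had 23.6 and 100.1 FPKM in sd and 11.2 and 60.9 FPKM in dd.

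**Figure D4:**
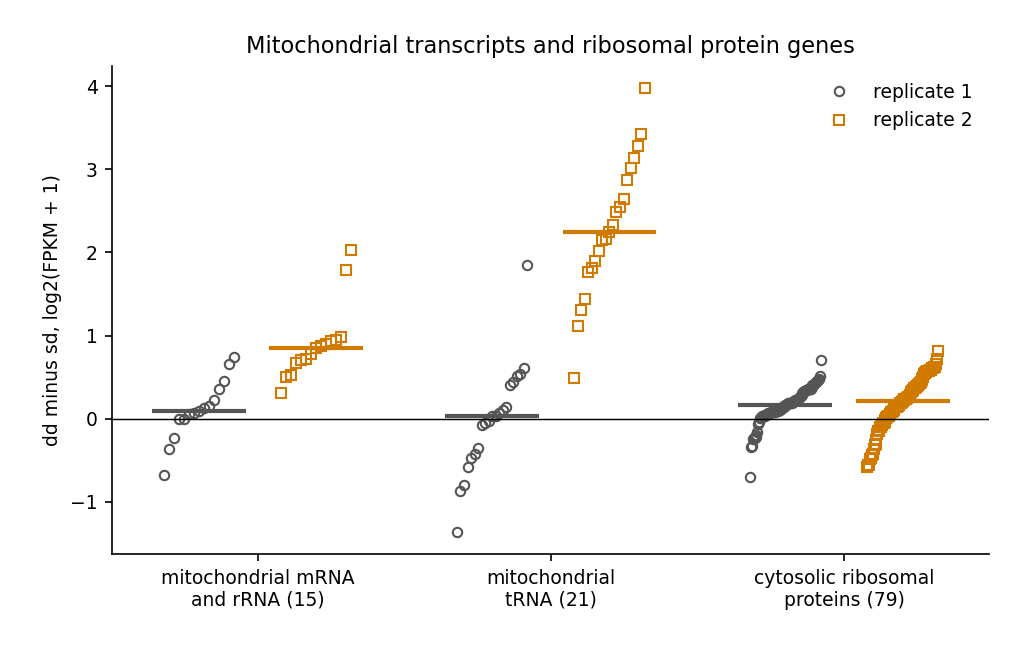
Difference between dd and sd in log2(FPKM + 1) of each gene within replicate 1 (grey circles) and replicate 2 (orange squares), with bars at the medians, for 15 mitochondrial messenger and ribosomal RNAs, 21 mitochondrial transfer RNAs and 79 cytosolic ribosomal protein genes. The transfer RNAs centre on 0.03 in replicate 1 and 2.24 in replicate 2, while the ribosomal protein genes centre on 0.16 and 0.22.

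Translation factors and the proteasome showed mixed values. Of 32 translation factors, 10 were higher and 6 lower in both numbers. Eif3e, a subunit of the initiation factor eIF3, had 21.2 and 20.8 FPKM in sd and 28.9 and 31.5 FPKM in dd. Eif4b, a cofactor of the initiation helicase, had 85.1 and 63.2 FPKM in sd and 61.7 and 49.1 FPKM in dd. Both separated the groups, in opposite directions. Of 31 proteasome genes, 8 were higher and 6 lower in both, and Psmc6, an ATPase subunit, had 68.0 and 49.3 FPKM in sd and 88.8 and 74.8 FPKM in dd, without overlap.

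Among chromatin regulators, genes of the complexes that methylate histone H3 at lysine 4 are of interest because long non-coding RNAs of stem cells are known to bind Wdr5, their scaffold. Of 16 measured, 0 were higher in both numbers and 4 lower in both (25%, against 28% of all genes), with a median of -0.12 that was 0.03 with quantile normalization. For 3 of the 16 the dd libraries were both below the sd libraries, which held for 6.97% of all genes. Wdr5 had 23.7 and 40.2 FPKM in sd and 16.7 and 22.0 FPKM in dd, with differences of -0.48 and -0.84 and a mean of -0.66 (SE 0.80, limma adjusted p = 1). Men1, which encodes menin, had 4.54 and 4.97 FPKM in sd and 1.63 and 2.46 FPKM in dd, with a mean of -0.93 (SE 0.50, adjusted p = 1). Ash2l, a core subunit, had 21.2 and 24.3 FPKM in sd and 16.8 and 20.3 FPKM in dd.

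Polycomb genes, which act against this mark, had 3 of 15 higher and 3 lower in both numbers. Bmi1, of repressive complex PRC1, had 7.47 and 3.68 FPKM in sd and 13 and 5.60 FPKM in dd, overlapping, and shares 30.2% of its stretches. Kdm2b, which brings PRC1 to CpG islands, had 1.71 and 1.75 FPKM in sd and 1.08 and 0.745 FPKM in dd. Of 11 DNA methylation genes, 2 were higher and 3 lower in both. Mbd3, a subunit of the NuRD complex, had 24.0 and 33.2 FPKM in sd and 14 and 19.2 FPKM in dd, without overlap. Uhrf1, which guides maintenance methylation, had 31.5 and 28.2 FPKM in sd and 23.4 and 18.2 FPKM in dd, without overlap. Trim28, a corepressor of retroelements, had 103 and 65.7 FPKM in sd and 89.4 and 19 FPKM in dd, with a difference of -0.20 in replicate 1 and -1.74 in replicate 2.

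Signalling lists were mixed. Of 16 FGF and ERK genes 2 were higher (12.5%) and 6 lower (37.5%) in both numbers, against 19.8% and 28% of all genes. Their median of -0.24 was -0.0007 with quantile normalization, -0.13 with median ratio scaling and -0.08 after GC correction. Mapk3, the kinase ERK1, had 5.18 and 9.31 FPKM in sd and 2.89 and 4.37 FPKM in dd, without overlap. Spry2, a feedback inhibitor, had 1750 and 3.27 FPKM in sd and 2187 and 9.94 FPKM in dd, so the replicate numbers differed far more than the treatments. Of 20 Nodal and BMP genes 4 were higher and 5 lower in both. Apela, a peptide hormone of stem cells, had 94 and 563 FPKM in sd and 70.0 and 142 FPKM in dd.

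The Myc family list, the transcription factors that pair with Max and Mlx and act on growth genes, had negative medians in both numbers. Of 10 genes 0 were higher in both numbers and 6 lower in both, with medians of -0.31 in replicate 1, -0.30 in replicate 2 and -0.33 for the mean, which was -0.16 after GC correction. Mlx, described above, has the largest difference of the list. Mxd3, a repressor of the family, had 0.643 and 3.93 FPKM in sd and 0.154 and 2.21 FPKM in dd, overlapping. Among 18 measured Atf4 stress genes, 2 were higher (11.1%) and 9 lower (50%) in both, against 19.8% and 28% of all genes. Their medians were -0.13 in replicate 1 and -0.42 in replicate 2, and after GC correction -0.08 and -0.15. Atf3, a stress-induced factor, had 3.38 and 1.54 FPKM in sd and 0.727 and 0.934 FPKM in dd, without overlap. Shmt2, a mitochondrial enzyme of serine metabolism, had 6.15 and 14.4 FPKM in sd and 4.46 and 4.54 FPKM in dd, without overlap.

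The p53 list had 1 of 20 higher and 4 lower in both numbers, with medians of -0.24 and 0.18 in replicates 1 and 2. Trp53 itself had 171 and 8.27 FPKM in sd and 134 and 1.19 FPKM in dd. Phlda3, a target that inhibits Akt, had 8.98 and 23.2 FPKM in sd and 5.06 and 5.22 FPKM in dd, without overlap. Casp9, an initiator caspase, had 3.30 and 2.80 FPKM in sd and 1.07 and 2.42 FPKM in dd. Of 15 apoptosis genes 2 were higher and 2 lower in both.

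Cell cycle lists went different ways. Of 28 DNA replication genes 10 were higher (35.7%) and 5 lower (17.9%) in both numbers, against 19.8% and 28% of all genes, with a median of 0.08. Of 28 mitosis genes 7 were higher (25%) and 8 lower (28.6%), with a median of 0.01. Rfc4, of the clamp loader, had 6.28 and 35.0 FPKM in sd and 9.46 and 50.2 FPKM in dd. Mki67, the proliferation marker, had 1.37 and 5.17 FPKM in sd and 2.33 and 7.56 FPKM in dd. Bub1b, a spindle checkpoint kinase, had 18.9 and 17.5 FPKM in sd and 15.3 and 10.1 FPKM in dd, without overlap. Replication histones, whose transcripts mostly lack poly(A) tails, had 0 of 20 measured genes higher and 6 lower (30%) in both, with medians of 0.05 in replicate 1 and -0.35 in replicate 2, against -0.02 and -0.07 for all genes. After GC correction the medians of the histones were 0.10 and 0.12, against 0.03 and 0.04 for all genes. None of these lists was tested as a whole. Hist1h1c, a linker histone gene, had 20.4 and 6.88 FPKM in sd and 10.5 and 4.34 FPKM in dd. The histone H3 gene Hist1h3g, described above among the genes with lower values, is not a member of the histone list.

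In the remaining lists, long non-coding transcripts of the Platr and Snhg series were mostly on the positive side. Of 26 measured (37 in the list), 22 had a positive mean difference, 11 were higher in both numbers (42.3%) and 1 lower, with a median of 0.11 and 0.25 under either scaling alternative. Platr26 had 2.99 and 10.6 FPKM in sd and 8.79 and 14.4 FPKM in dd, and Snhg1, a host of small nucleolar RNAs, 43.9 and 23.3 against 52.2 and 38.4 FPKM. Both overlapped between the groups. H19, an imprinted non-coding RNA, had 6.93 and 2.80 FPKM in sd and 2.23 and 1.14 FPKM in dd, without overlap, with a mean of -1.06 (SE 0.59, limma adjusted p = 1). Of 24 interferon response genes 6 were measured and 4 of these were lower in both. Bst2, the membrane protein tetherin, had 0.599 and 8.43 FPKM in sd and 0.0578 and 2.34 FPKM in dd. Cholesterol synthesis genes split, 8 of 24 higher and 5 lower in both. Sqle, squalene epoxidase, had 23.4 and 12 FPKM in sd and 29.1 and 14.5 FPKM in dd.

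Surface and structural genes split as well, with 6 of 20 adhesion genes higher and 8 lower in both numbers. Epcam, an adhesion molecule of epithelial and stem cells, had 5.82 and 21.3 FPKM in sd and 14 and 28 FPKM in dd, overlapping. Itgb5, an integrin subunit, had 4.15 and 3.83 FPKM in sd and 2.67 and 2.82 FPKM in dd, without overlap. Arpc5, a subunit of the actin nucleator Arp2/3, had 53.5 and 46.0 FPKM in sd and 66.6 and 63.5 FPKM in dd, without overlap. Germline genes had 1 of 13 higher and 4 lower in both. Dazl, an RNA-binding protein of germ cells, had 30.0 and 29.5 FPKM in sd and 39.9 and 34.3 FPKM in dd, and Magea4, a germline antigen, 3.63 and 3.23 against 1.87 and 2.23 FPKM. Both separated the groups, in opposite directions.

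The difference between dd and sd moved with transcript GC content within replicate 2 and not within replicate 1. Across 9543 protein-coding genes, Spearman's rho of the difference with GC content was 0.02 in replicate 1 and -0.55 in replicate 2, given as a description of genes of the same libraries. In 5 equal bins from the lowest to the highest GC content, the median difference in replicate 2 was 0.25, 0.13, -0.03, -0.23 and -0.45. In replicate 1 it stayed between -0.08 and -0.05. Against sh replicate 2, rho was -0.54 for dd replicate 2 and -0.21 for sd replicate 2. Against control replicate 2 it was -0.67 and -0.56, so both libraries differed from control with GC content. The median difference in replicate 2 also went with the level, from -0.29 for genes of 1 to 2 FPKM to 0.19 for genes over 50 FPKM, and in replicate 1 the medians lay between -0.06 and 0.04 without following the level. Median GC content was 42.1% for the 12 genes with higher values, 53.9% for the 12 with lower values and 48.9% for all genes. After each library was corrected for GC content, 8 genes were higher and 31 lower by 1 or more in both numbers, and all 24 named genes kept the direction of the mean difference. The 24 genes were chosen for large differences, so their kept direction is not a test of the part of GC content. Chsy1 had differences of 1.13 and 1.28 after the correction, Cldn6 had -1.13 and -0.91, and Wdr5 had -0.44 and -0.63. For Men1 the value in replicate 2 was -0.79 before and -0.31 after, and for Mbd3 -0.76 and -0.17. The part of GC content in these differences was not tested further.

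**Figure D5:**
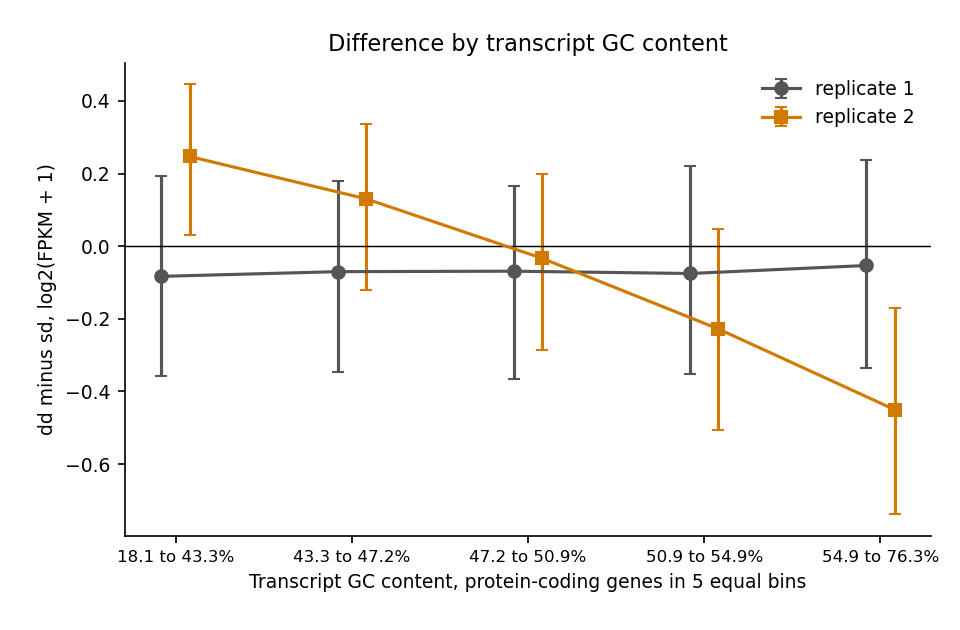
Median difference between dd and sd in log2(FPKM + 1) in 5 equal bins of transcript GC content of 9543 protein-coding genes, for replicate 1 (grey circles) and replicate 2 (orange squares), with bars from the lower to the upper quartile of genes. Replicate 1 is flat near -0.07, and replicate 2 goes from 0.25 in the lowest bin to -0.45 in the highest.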

How the data were processed

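RNA abundance was measured in 8 libraries of mouse embryonic stem cells, and the 4 dd and sd libraries are compared here. The authors deposited 1 table of FPKM per gene and library, per the file headers. HISAT2, CASAVA 1.4 and the mm10 build are named in the submitters' processing notes. How reads were counted, on which annotation, by which formula and whether with strand is not given in the sources used here. Of 58420 gene rows, 6082 had no value and 52081 of the other 52338 matched GENCODE M21 (GRCm38) by Ensembl identifier. FPKM times exon length gave whole reads, within 0.02, for 98.4% to 98.8% of values under 100 reads in the 4 libraries. Depth is the scaling total implied by the step of 1 read, and reads per gene were recovered with the same step. A count of 0 allows up to 3 reads, which for a 1 kb transcript is 0.147 to 0.195 FPKM. Intervals and floors cover counting error only.

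Values were tested as log2(FPKM + 1) with limma 3.58.1 in R 4.3.3, with all 4 groups (2 libraries each, 4 residual degrees of freedom), a mean-variance trend, two-sided p-values and Benjamini-Hochberg adjustment over the 13620 genes. The log2 scale with a pseudocount of 1 understates changes of low genes. The steps were tested on simulated data. Named genes are any called by limma (0), the 12 higher and 12 lower genes described in the text, up to 3 members of each of 42 gene lists, and Pou5f1, Sox2, Nanog, Actb and Gapdh; examples are printed. The members and lists were chosen with earlier results of these data known, so no p is adjusted over a list alone and lists are described by counts and medians. GC correction subtracted, for each library, a loess curve (span 0.3) of its deviation from the gene means on transcript GC content. Shared stretches are 31-base sequences of a gene's transcripts found in another gene's. Sequences are from RefSeq and GENCODE. Alternatives were other pseudocounts (0.1 or 0.5), other limits on low values (none, or a mean of 5 FPKM), 2 scalings, the replicate number as a block, a fit of 4 libraries, voom on recovered reads, coding genes only, and leaving out each library; GC correction was added after seeing the data.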

Additional observations from a re-analysis of the deposited data

How the results depend on the processing

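Limits come from the gap between replicate numbers, low depth for rare transcripts (3 reads allow 0.147 to 0.195 FPKM at 1 kb), and 2 libraries a group. The count of genes called by limma was 0 in 23 of 24 alternative fits, with 0 to 1022 genes at an unadjusted p of 0.05. The exception was the fit of the 4 dd and sd libraries with the replicate block, which has 1 residual degree of freedom and called 7 genes, 1 higher (Gm47169) and 6 lower (Mir6400, Itpa-ps1, Gm11702, Gm9825, Gm29718 and Gm6705). The adjusted p was 0.00217 for Mir6400 in that fit and 0.996 for all 7 after GC correction. With the replicate block over all 8 libraries 0 genes were called, 158 had an unadjusted p under 0.05, the smallest adjusted p was 0.934 and the median standard error was 0.425. With voom 0 were called (10 unadjusted), and with voom and the block 0 (340). Deviations of same-numbered dd and sd libraries from their group means correlated at 0.849, but with 2 numbers and no label on what a number shares this is a hint only, and the block changed no other call.

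Genes past 1 in both replicate numbers, 4 higher and 42 lower, were 26 and 234 with a pseudocount of 0.1, 13 and 103 with 0.5, 2 and 16 at a mean of 5 FPKM, and 0 and 6 among protein-coding genes. The higher count was 15 with quantile normalization, 10 with median ratio scaling and 8 with GC correction. The cause was not tested, other than that fewer genes enter the last filters.

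Of 94 named genes, 31 had the opposite direction under at least 1 alternative. Under scaling this was Nanog only, at 0.0645 with median ratio scaling. When 1 library is left out of the fit without the block, libraries of different numbers are compared, and the mean difference then ranged from -2.65 to 1.32 for Gbx2, -0.958 to 0.366 for Stat3, -1.8 to 0.665 for Dnmt3b, -1.17 to 0.242 for Lrp2, -0.771 to 0.0786 for Zscan4c, -2.06 to 0.12 for Trim28, -3.5 to 5.18 for Spry2, -2.49 to 0.0827 for Apela, -1.36 to 0.23 for Mxd3, -4.19 to 1.76 for Trp53, -1.81 to 0.665 for Gapdh, -0.195 to 0.758 for Sqle, -0.636 to 1.67 for Rfc4, -0.207 to 1.17 for Mki67, -0.759 to 1.89 for Rpl26, -0.531 to 1.6 for Rpl22, -0.0779 to 1.45 for mt-Co2, -0.272 to 1.66 for mt-Co1, -2.03 to 0.312 for Atp5d, -0.0937 to 1.61 for Epcam, -2.33 to 0.233 for Bst2, -1.92 to 0.876 for Pou5f1, -0.256 to 0.0596 for Nanog, -3.83 to 3.49 for Actb, -0.0555 to 4.07 for mt-Th, -0.527 to 2.08 for mt-Nd5, -0.435 to 1.78 for mt-Nd6 and -1.16 to 3 for mt-Tp. With the block and 1 library left out, without dd replicate 2 it was 0.0548 for Ash2l, 0.0852 for Trim28, -0.121 for Spry2 and -0.298 for Sox2. Without sd replicate 1 it was 0.197 for Hnf4a, 0.105 for Ash2l and 0.0378 for Nanog. Without sd replicate 2 it was 0.508 for Pou5f1, 0.0938 for Actb, -0.227 for mt-Nd5, -0.633 for mt-Nd6 and -0.0289 for mt-Tp. List medians moved by more than 1 SD of their 2 within-replicate values in 315 of 957 recomputed medians.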

Other observations

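Some classes of transcripts that no list covered had medians away from that of all genes (-0.02 in replicate 1 and -0.07 in replicate 2), and in different replicate numbers. Of 43 measured microRNA genes 10 had a positive mean difference, with a median of 0 within replicate 1 and -2.40 within replicate 2. Only 4 were higher in both numbers, 5 were lower in both and 7 went opposite ways. The others had a difference of 0 in a replicate number. A gene can pass the limit on low values through a high value in any library, so these medians depend on that limit. Of 97 measured small nucleolar RNAs, which guide modification of ribosomal RNA, 11 were higher (11.3%) and 29 lower (29.9%) in both numbers. The shares of all genes were 19.8% and 28%, so the lower share was near that of all genes. The medians of this class were -0.41 in replicate 1 and 0 in replicate 2. Processed pseudogenes, 3116 of the genes tested, had a median of 0.06 in replicate 1 and -0.23 in replicate 2, and they took 31.3% and 31.7% of the reads in the replicate 2 libraries of sd and dd, against 8.14% and 8.46% in replicate 1. These classes were chosen after their values were seen, and short transcripts of this kind rest on few reads.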
